A study of Mus musculus with 9 samples.

Results

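The immediate early transcription factors considered here are 10 mouse genes in 4 groups: *Fos*, *Fosb* and *Fosl2* (FOS family), *Jun*, *Junb* and *Jund* (JUN family), *Egr1*, *Egr2* and *Egr3* (EGR family), and *Myc*. They are taken by name, by a rule that uses no measured value, and were found in the count table through their NCBI Gene identifiers. All 10 have a row among the 27179 genes of the table, and all 10 were among the 13129 genes with enough counts to be tested. The data are RNA immunoprecipitation sequencing (RIP-seq) of UPF1 in its phosphorylated form (p-UPF1), in which RNA that comes down with an antibody against p-UPF1 is sequenced beside RNA that comes down with a nonspecific IgG and beside the RNA of the lysate (input).

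UPF1 is an RNA helicase needed for nonsense-mediated mRNA decay (NMD), the pathway that removes mRNAs whose stop codon is read as premature. Phosphorylation of UPF1 accompanies its engagement in decay. Immediate early genes are the first to be transcribed after a cell is stimulated, without a need for new protein, through kinase cascades that act on serum response factor, ternary complex factors and CREB. Their mRNAs are short-lived as a class, and several carry AU-rich elements in the 3′ untranslated region (UTR) that recruit decay factors other than those of NMD. FOS and JUN proteins pair through a leucine zipper to form AP-1, EGR proteins bind DNA through zinc fingers and are induced by the B cell receptor, and MYC pairs with MAX to drive growth and division of activated lymphocytes.

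All 9 libraries came from spleen B cells of wild type mice, isolated as CD43- cells and activated for 72 h with CD40L (5 ug/mL), anti-IgM (10 ug/mL) and IL-4 (20 ng/mL) per the labels. The study's methods name an anti-CD40 antibody for the first of these. The 3 groups, input, IgG and p-UPF1, hold 3 libraries each and share this activation, so no library is from resting cells and the comparisons are between ways of taking RNA from one kind of lysate. The labels do not say whether the 3 libraries of a group are separate cultures or animals, so the p-values measure the spread between these libraries. The study's methods describe the points of its graphs as independent biological replicates, without naming the RIP-seq libraries. The columns of the table carry letters (A, B and C) in place of replicate numbers, and the methods take the input and both precipitates from one lysate without saying whether a letter marks it.

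Total counts ran from 17372510 to 24945286 per library, and the genes tested held 99.9% of them. The B cell markers *Cd79a*, *Cd79b*, *Ms4a1*, *Cd22* and *Pax5* were present in every group, with input means from 58.0 CPM for *Pax5* to 1229 CPM for *Cd79b* (CPM are counts scaled to library size, here adjusted by TMM factors). The lists for T cells, NK cells, granulocytes and erythroid cells each summed to under 1 CPM in every library. Of the 5 myeloid markers only *Adgre1* reached 1 CPM, with an input mean of 131 CPM. Plasma cell markers summed to 18.4 to 21.9 CPM in input, with *Tnfrsf17* at 0.

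Short AU-rich stretches of the 3′ UTRs show what kind of mRNA these are. The pentamer ATTTA, the core of AU-rich elements, and the longer ATTTATTTA were counted on the sense strand of the 3′ UTR of 1 GENCODE transcript per gene, overlapping matches included. ATTTA was in the 3′ UTR of all 10 mRNAs and of 66.8% of the 11866 coding genes tested. *Fos* held 4 copies, *Fosb* 1, *Fosl2* 8, *Jun* 4, *Junb* 2, *Jund* 1, *Egr1* 2, *Egr2* 3, *Egr3* 7 and *Myc* 2. For *Myc* the transcript with the longest annotated 3′ UTR was used, since the one taken by the general rule has none. ATTTATTTA was in *Fos* alone of the 10, with 1 copy, and in 5.81% of coding genes. A window of 30 bases is printed for 9 of the 10 mRNAs (5′ to 3′ on the gene's strand, GRCm38), with every ATTTA in capitals, to let the elements of the families be compared by eye. A match is a description of these letters and not evidence of a bound factor.
Fos (chr12:85477101-85477130, plus strand): tgtgttttcaATTTATTTAttaagatggat
Fosb (chr7:19303325-19303354, minus strand): ccacccccagctATTTAtccctttcctggt
Fosl2 (chr5:32156865-32156894, plus strand): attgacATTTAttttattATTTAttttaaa
Jun (chr4:95049207-95049236, minus strand): atcATTTAtaatcataggaaagATTTAgta
Junb (chr8:84977126-84977155, minus strand): atatatttgtgtATTTAacagggaggggag
Jund (chr8:70700359-70700388, plus strand): cgattccgccctATTTAtgtttctactcgg
Egr2 (chr10:67541645-67541674, plus strand): cagtgtatatccATTTAgattttgtgtatt
Egr3 (chr14:70081097-70081126, plus strand): ttagacacatatATTTAcataacacacact
Myc (chr15:61990135-61990164, plus strand): taacagatttgtATTTAattgtttttttaa
*Fos*, *Fosl2* and *Jun* each have 2 copies within their window, overlapping in *Fos* and apart in the others, while the window of each other gene holds 1. The windows of *Junb* and *Jund* begin 240 and 276 bases past the stop codon of short 3′ UTRs (485 and 533 bases), and that of *Fosl2* begins 3676 bases past the stop codon of a 3′ UTR of 4653 bases.

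The 10 mRNAs spanned a wide range of input levels after 72 h of activation. Levels per kilobase use all RefSeq exons of a gene. For *Jund* these hold 2878 bases, against 1668 in its GENCODE transcript, so the order of genes can depend on the annotation. Per kilobase of exonic sequence, the mean input level was highest for *Jund* at 216.5 ± 3.8 CPM per kb (SD, n = 3), followed by *Myc* at 167.5 ± 1.36, *Junb* at 129 ± 1.68 and *Egr2* at 89.0 ± 0.452. *Jun* at 16.7 ± 0.695 and *Egr1* at 14.8 ± 0.585 CPM per kb came next, and *Fosl2* stood at 6.45 ± 0.0316. *Egr3* at 2.47 ± 0.188, *Fos* at 2.08 ± 0.242 and *Fosb* at 0.657 ± 0.0539 CPM per kb were the lowest. Neighbours in this order were further apart than the SD of either. In a bulk lysate, a low level in all cells and a high level in few cells cannot be told apart. In the p-UPF1 libraries the order was different, with *Egr2* first at 117 ± 1.23 CPM per kb, then *Jun* at 62.4 ± 2.26, *Jund* at 51.7 ± 1.80, *Myc* at 49.9 ± 0.608 and *Junb* at 42.5 ± 2.53. With the RefSeq lengths, *Jund* and *Myc* did not differ there beyond their spread. *Egr1* at 5.72 ± 0.461, *Fosl2* at 4.82 ± 0.314 and *Egr3* at 4.69 ± 0.0993 CPM per kb lay close together, above *Fos* at 1.77 ± 0.346 and *Fosb* at 1.23 ± 0.105.

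**Figure D1:**
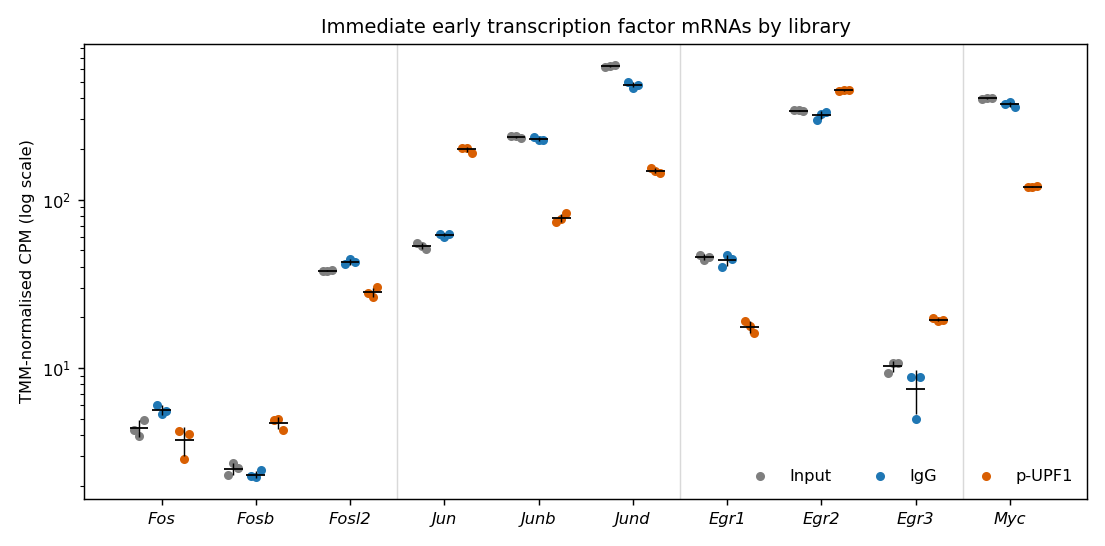
TMM-normalised CPM (log axis) of the 10 mRNAs in each of the 9 libraries (points), with the group mean (horizontal bar) and SD (vertical bar), n = 3 per group. The p-UPF1 points of *Jun*, *Fosb*, *Egr2* and *Egr3* lie above both other groups, and those of *Junb*, *Jund*, *Egr1* and *Myc* lie well below them.

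Whether the p-UPF1 antibody recovered these mRNAs was tested against IgG and against input. In both comparisons a Log2FC of 0 is close to the typical RNA, since TMM scaling centres near it. A clearly negative value thus means less recovery than the typical RNA and not an absence from the precipitate. *Jun*, *Egr3*, *Fosb* and *Egr2* were higher in p-UPF1 than in IgG, and *Jund*, *Myc*, *Junb*, *Egr1*, *Fosl2* and *Fos* were lower (quasi-likelihood test of edgeR, P values adjusted by Benjamini and Hochberg over all genes tested, adj. P under 0.05). So 4 of 10 were higher and 6 of 10 lower, where 40.4% of all genes tested were higher and 42.2% lower. Against input, 4 of 10 were higher and 5 of 10 lower, where 40.8% and 42.6% of all genes were, and *Fos* did not pass. The median Log2FC of the 10 was -0.60 over IgG and -0.33 over input, beside -0.03 and -0.03 for all genes tested. The shares higher were near those of all genes, and the shares lower were somewhat larger. Whether the 10 differ from all genes as a set was not tested. The values differed mainly between members of one family. Both comparisons use the same p-UPF1 libraries, so their values are given side by side and are not independent of each other.

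None of the 10 met the combined criterion that the study's methods set for a p-UPF1-bound RNA, a Log2FC of at least 1 over IgG and of at least 2 over input, each with an adj. P under 0.05. That criterion was met by 820 genes, or 6.25% of those tested. A Log2FC of at least 1 over IgG was reached by *Jun*, *Egr3* and *Fosb* (3 of 10, against 22.2% of all genes), and a Log2FC of -1 or less by *Jund*, *Myc*, *Junb* and *Egr1* (4 of 10, against 21.9%). The minimum over input was reached by 0 of 10, against 6.31% of all genes, and *Jun* came nearest with 1.90. *Jun* passed it, and with it the combined criterion, under 2 of the alternatives tried. Its Log2FC over input was 2.03 both with an IgG library as the TMM reference and without a filter on low counts.

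**Figure D2:**
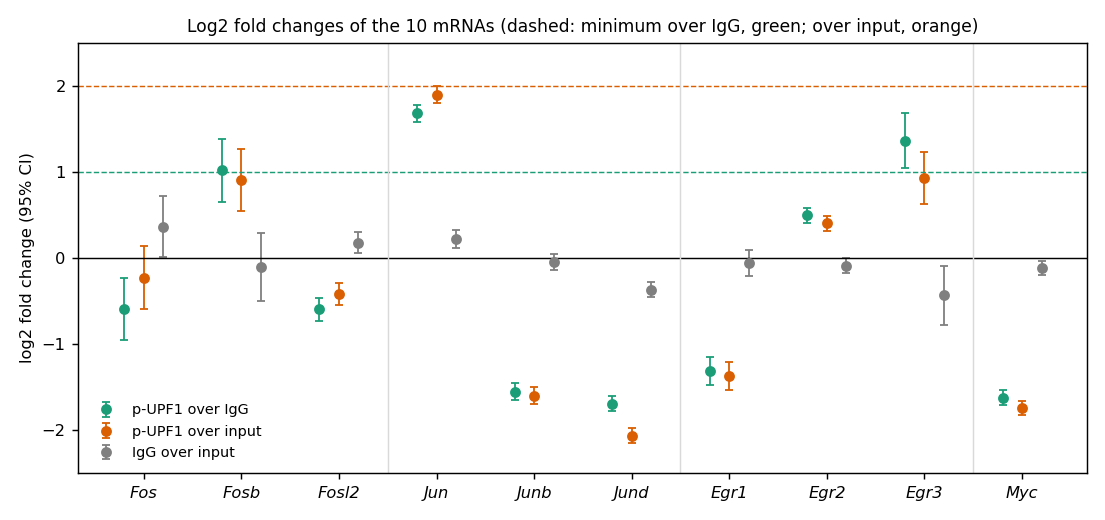
Log2FC of the 10 mRNAs for p-UPF1 over IgG (green), p-UPF1 over input (orange) and IgG over input (grey), with 95% confidence intervals derived from edgeR's F statistic. The dashed lines mark the minimum over IgG (green, 1) and over input (orange, 2), and *Jun* lies just under the second with 1.90.

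The JUN family supplies the partners that can form AP-1 by themselves or with FOS proteins. *Jun* encodes c-Jun, the strongest activator among them. JunB and JunD are weaker activators and can oppose c-Jun. The 3 genes are each a single exon: *Jun* at chr4:95049036-95052222 (minus strand), *Junb* at chr8:84976909-84978748 (minus) and *Jund* at chr8:70697739-70700616 (plus), all in GRCm38.

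*Jun* had 55.5, 53.4 and 51.1 CPM in the input libraries, 62.8, 60.4 and 63.0 CPM in IgG, and 204, 202 and 191 CPM in p-UPF1. Every p-UPF1 library was above every other one. The Log2FC was 1.68 (SE 0.05) over IgG, with an adj. P of 4.51e-15 by edgeR's quasi-likelihood test, and 1.90 (adj. P 8.65e-16) over input. It placed *Jun* at percentile 89.4 of all genes tested over IgG and at percentile 92.3 over input.

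*Junb* went the other way. It had 240, 238 and 234 CPM in input, 237, 226 and 225 CPM in IgG, and 73.9, 77.2 and 83.1 CPM in p-UPF1, so that the p-UPF1 libraries lay below all others. Its Log2FC was -1.55 (SE 0.05) over IgG, with an adj. P of 1.19e-14 by edgeR's quasi-likelihood test, and -1.60 (adj. P 6.32e-15) over input. *Jund*, the most abundant of the 10 in input, had 613, 622 and 635 CPM there, 499.8, 464 and 483 CPM in IgG, and 154, 148 and 144 CPM in p-UPF1. All 3 p-UPF1 libraries were again lowest. The Log2FC of *Jund* was -1.70 (SE 0.04) over IgG (adj. P 1.04e-15, edgeR) and -2.07 (adj. P 8.28e-17) over input, at percentiles 9.88 and 9.06 of all genes tested.

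The split within the JUN family was also taken from ratios of 2 mRNAs inside each library, which do not depend on how libraries are scaled. The log2 ratio of *Jun* to *Junb* counts was 1.35 ± 0.137 (SD, n = 3) in p-UPF1, -1.89 ± 0.043 in IgG and -2.15 ± 0.041 in input. *Jun* thus had fewer counts than *Junb* in all input and IgG libraries and more in all p-UPF1 libraries. The ratio was 9.41 times that of IgG and 11.3 times that of input. *Jun* to *Jund* moved from -2.96 ± 0.031 in IgG and -3.55 ± 0.085 in input to 0.42 ± 0.028 in p-UPF1, a change of 10.4 times and 15.6 times. *Junb* to *Jund* was -0.93 ± 0.134 in p-UPF1 and -1.07 ± 0.031 in IgG, which overlapped (difference 0.14, exact permutation p = 0.2, adjusted 0.225), and -1.39 ± 0.044 in input. The exact permutation test of 3 against 3 libraries (two-sided) cannot give less than 0.1, which was the value for both *Jun* ratios against IgG (adjusted over the 9 family pairs, 0.129) and against input (adjusted 0.112).

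The FOS family needs a JUN partner to bind DNA. *Fos* is the archetype of the rapidly induced and rapidly degraded mRNA, *Fosb* is its near relative with a splice form that lacks the activation domain, and *Fosl2* encodes Fra-2, which outlasts c-Fos after stimulation. *Fos* lies at chr12:85473890-85477274 (plus strand), *Fosb* at chr7:19302696-19310118 (minus) and *Fosl2* at chr5:32136472-32157840 (plus). *Fos* and *Fosb* had the fewest counts of the 10, with 64 to 114 per library for *Fos* and 43 to 116 for *Fosb*. Their errors were accordingly wider, with SEs of 0.17 for both over IgG against 0.06 for *Fosl2*.

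*Fos* had 4.30, 3.94 and 4.94 CPM in input, 6.06, 5.31 and 5.54 CPM in IgG, and 4.21, 2.89 and 4.08 CPM in p-UPF1. The p-UPF1 libraries were all below IgG but overlapped with input. The Log2FC of *Fos* was -0.59 over IgG (adj. P 0.00412, edgeR's quasi-likelihood test), and over input it was -0.23 with a 95% interval from -0.60 to 0.13 (adj. P 0.216). *Fosl2* had 37.9, 37.6 and 38.0 CPM in input, 41.3, 44.5 and 42.5 CPM in IgG and 28.0, 26.6 and 30.2 CPM in p-UPF1. Its p-UPF1 libraries were below both other groups, with a Log2FC of -0.60 over IgG (adj. P 1.17e-07) and -0.42 over input (adj. P 7.96e-06).

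*Fosb* was the FOS gene that was higher in the precipitate. It had 2.31, 2.73 and 2.55 CPM in input, 2.29, 2.25 and 2.46 CPM in IgG, and 4.89, 5.01 and 4.26 CPM in p-UPF1, with no overlap. The Log2FC was 1.02 (SE 0.17) over IgG, with an adj. P of 4.31e-05 by edgeR's quasi-likelihood test, and 0.90 (adj. P 0.000107) over input. The 95% interval over IgG, from 0.65 to 1.38, contains the minimum of 1, and the value lay between 0.86 and 1.09 under the alternatives tried.

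Within libraries, the log2 ratio of *Fos* to *Fosb* was -0.35 ± 0.382 in p-UPF1, 1.25 ± 0.119 in IgG and 0.78 ± 0.227 in input, so the ratio fell by 1.61 and 1.14 on the log2 scale (exact permutation p = 0.1 in both, adjusted 0.129 and 0.112). *Fosb* to *Fosl2* was -2.57 ± 0.216 in p-UPF1, -4.17 ± 0.101 in IgG and -3.88 ± 0.124 in input, with the same p-values. *Fos* to *Fosl2* was -2.93 ± 0.236 in p-UPF1, -2.92 ± 0.15 in IgG and -3.10 ± 0.157 in input, and the groups overlapped (exact permutation p = 1 against IgG and 0.4 against input). Leaving out 1 library at a time, that difference from IgG stayed between -0.11 and 0.12.

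**Figure D3:**
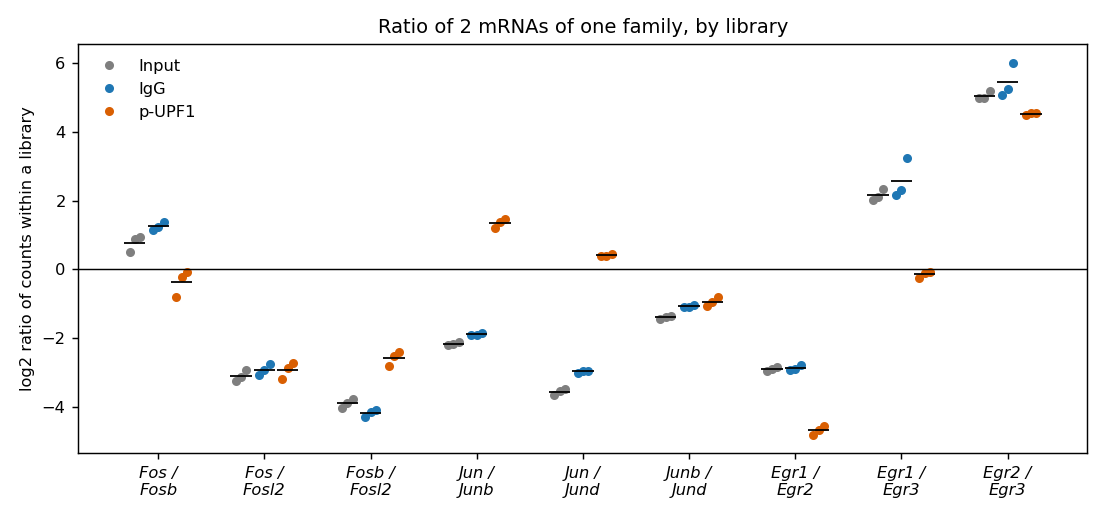
Log2 ratio of the counts (plus 1) of 2 mRNAs of one family within each library (points, sorted by value) for input (grey), IgG (blue) and p-UPF1 (orange), with group means as bars, n = 3. *Jun* to *Junb* and *Jun* to *Jund* cross from below 0 to above 0 in p-UPF1, and *Fos* to *Fosl2* overlaps in all 3 groups.

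The EGR family are zinc finger activators that share a DNA sequence preference and are held back by the corepressors NAB1 and NAB2. *Egr1* is the classic target of B cell receptor signalling, while *Egr2* and *Egr3* also act in restraining lymphocyte activation. *Egr1* lies at chr18:34861207-34864956, *Egr2* at chr10:67534469-67542188 and *Egr3* at chr14:70077317-70082613, all on the plus strand of GRCm38. *Egr2* is the only one of the 10 genes whose locus overlaps another gene in RefSeq, *Gm32255* on the opposite strand. For libraries counted without strand, reads of *Egr2* and *Gm32255* cannot be told apart.

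*Egr1* had 47.2, 43.6 and 45.9 CPM in input, 40.1, 46.7 and 44.2 CPM in IgG, and 18.9, 17.7 and 16.1 CPM in p-UPF1. The p-UPF1 libraries were well below the others, and input and IgG overlapped. The Log2FC was -1.31 (SE 0.08) over IgG, with an adj. P of 5.84e-11 by edgeR's quasi-likelihood test, and -1.37 (adj. P 2.45e-11) over input.

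*Egr2* was abundant and modestly higher in the precipitate, with 339.2, 341 and 337 CPM in input, 298, 322 and 333 CPM in IgG, and 442, 449 and 450.0 CPM in p-UPF1. No p-UPF1 library overlapped with the others. Its Log2FC was 0.49 (SE 0.04) over IgG, with an adj. P of 1e-08 by edgeR's quasi-likelihood test, and 0.40 (adj. P 1.36e-07) over input. *Egr3* had 9.33, 10.6 and 10.7 CPM in input, 8.87, 4.95 and 8.82 CPM in IgG, and 19.8, 19.1 and 19.2 CPM in p-UPF1. The p-UPF1 libraries were again highest, and the low IgG value is library B, with 97 counts beside 167 and 172. The Log2FC of *Egr3* was 1.36 (SE 0.15) over IgG (adj. P 3.13e-07, edgeR) and 0.93 (adj. P 1.52e-05) over input, and it was 1.14 over IgG without that library.

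The log2 ratio of *Egr1* to *Egr2* was -4.67 ± 0.13 in p-UPF1, -2.86 ± 0.07 in IgG and -2.89 ± 0.061 in input, a drop of 3.50 times and 3.42 times. *Egr1* to *Egr3* was -0.14 ± 0.096 in p-UPF1, 2.57 ± 0.572 in IgG and 2.15 ± 0.16 in input, so that *Egr3* had slightly more counts than *Egr1* in every p-UPF1 library and fewer in every other one. *Egr2* to *Egr3* was 4.53 ± 0.045 in p-UPF1, 5.43 ± 0.505 in IgG and 5.05 ± 0.114 in input. The exact permutation test gave 0.1, the smallest value possible, for each of these (adjusted 0.129 against IgG and 0.112 against input).

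*Myc*, at chr15:61985341-61990361 (plus strand), had 398, 405 and 402 CPM in input, 373, 379.9 and 356 CPM in IgG, and 118, 119.7 and 121 CPM in p-UPF1. All 3 p-UPF1 libraries were far below the other 6. The Log2FC was -1.62 (SE 0.04) over IgG, with an adj. P of 7.55e-16 by edgeR's quasi-likelihood test, and -1.75 (adj. P 2.55e-16) over input, at percentiles 10.7 and 12.4 of all genes tested. *Myc*, *Junb* and *Jund*, the 3 with the highest input levels per kilobase, were thus the 3 lowest over IgG, between -1.55 and -1.70.

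IgG over input measures what beads and a nonspecific antibody carry along, and here the members differed little. *Jun* (Log2FC 0.22, adj. P 0.00159) and *Fosl2* (0.18, adj. P 0.0204) were higher in IgG, and *Egr3* (-0.44, adj. P 0.0321), *Jund* (-0.37, adj. P 1.3e-06) and *Myc* (-0.12, adj. P 0.0124) were lower, by edgeR's quasi-likelihood test. That is 2 of 10 higher and 3 of 10 lower, where 18.2% and 34.7% of all genes were. That split of all genes depends on scaling, with 34.4% of the called genes higher as computed and 52.6% higher with library size alone. The median Log2FC of all genes was -0.10 as computed, and *Myc*, at percentile 48 of all genes tested, lay near it. The Log2FC of *Fos* was 0.36 (adj. P 0.0823), and it passed under 6 of 21 alternatives, with values up to 0.48. Those of *Fosb* (-0.11), *Egr2* (-0.09), *Egr1* (-0.06) and *Junb* (-0.05) did not pass, and these 4 turned sign under at least 1 other scaling. *Egr2* did pass with the column letter as a replicate block, at -0.09 (adj. P 0.0441), and without IgG library C, at -0.14 (adj. P 0.0138). Of the calls, that of *Egr3* was lost under 8 of 21 alternatives, among them leaving out IgG library B (-0.21, adj. P 0.1), input library B (adj. P 0.0878) or input library C (adj. P 0.0864). The call of *Myc* was lost under 7, with a value of -0.0055 (adj. P 0.912) for library size alone, and that of *Fosl2* under 4, each of which left out 1 library.

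Genes with a profile across the 9 libraries most like that of *Jun*, *Egr1* or *Myc* were sought by the Euclidean distance between centred log2 CPM values, among the 8991 other genes with a mean of at least 10 CPM. For *Jun* the closest were *Slc25a38*, *Wdr45b* and *Vps39*, at distances of 0.133 to 0.184 and with Log2FC over IgG of 1.74 to 1.76. For *Egr1* they were *Gm38396*, *Vps51* and *Mphosph10* (0.148 to 0.173), and for *Myc* they were *Hspa14*, *Plaa* and *Rnf139* (0.113 to 0.141). Such profiles were common. Pearson correlations of at least 0.95 over the 9 libraries were reached by 2200 genes for *Jun*, 2235 for *Egr1* and 2408 for *Myc*. For *Fos* only 1 gene did, and *Fos* itself lay under the minimum of 10 CPM, with 64 to 114 counts per library. The cause of this difference was not tested.

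The structure of the mRNAs was then set beside these values, as a description. None of the 10 transcripts has an exon junction past its stop codon, a feature linked to NMD and found in 3.89% of the coding genes tested. Junctions were counted at any distance past the stop codon, on protein-coding transcripts alone. The class is therefore not a list of NMD substrates. Of those genes with such a junction, 7.36% were p-UPF1-bound, beside 6.36% of all coding genes tested. The single exon of *Jun*, *Junb* and *Jund* is shared by 2.1% of coding genes, whose median Log2FC over IgG was -0.69, beside 0.02 for genes with 2 or more exons. *Jun* lay far above that median, and *Junb* and *Jund* lay below it.

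Over coding genes, Log2FC over IgG was higher with a longer 3′ UTR (Spearman's rho 0.325 over 11866 genes of the same 6 libraries). The rho was 0.28 for the length of the whole transcript and 0.128 for the coding length, and these lengths were not separated. Genes with a 3′ UTR of up to 581 bases had a median of -0.57, those up to 1640 bases 0.24 and those above 0.41. *Junb*, *Jund* and *Myc*, with 3′ UTRs of 485, 533 and 466 bases, fall in the first class and lay below its median. *Egr3* (2645 bases) and *Fosb* (2145 bases) fall in the last and lay above its median, while *Fosl2*, with the longest 3′ UTR of the 10, was at -0.60. In the middle class, *Jun* with 1233 bases was at 1.68, *Egr2* with 1200 bases at 0.49 and *Egr1* with 1216 bases at -1.31, values far apart at like lengths. *Fos* with 815 bases was at -0.59.

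The number of ATTTA copies did not order the members. *Fosl2* with 8 copies was at -0.60 and *Egr3* with 7 copies at 1.36, *Jun* and *Fos* with 4 copies each were at 1.68 and -0.59, and *Fosb* and *Jund* with 1 copy each were at 1.02 and -1.70. Over all coding genes, the median Log2FC over IgG was -0.16 with no copy, 0.13 with 1 or 2, 0.21 with 3 to 5 and -0.06 with 6 or more, and the rho was 0.082. Long 3′ UTRs hold more copies, with ATTTA in 32.7%, 73.2% and 94.7% of genes in the 3 length classes, so the counts are not independent of length. GC content, with a rho of 0.142, was highest in *Jund* (67.1%) and *Junb* (62.6%) and was 55.5% in *Jun*.

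**Figure D4:**
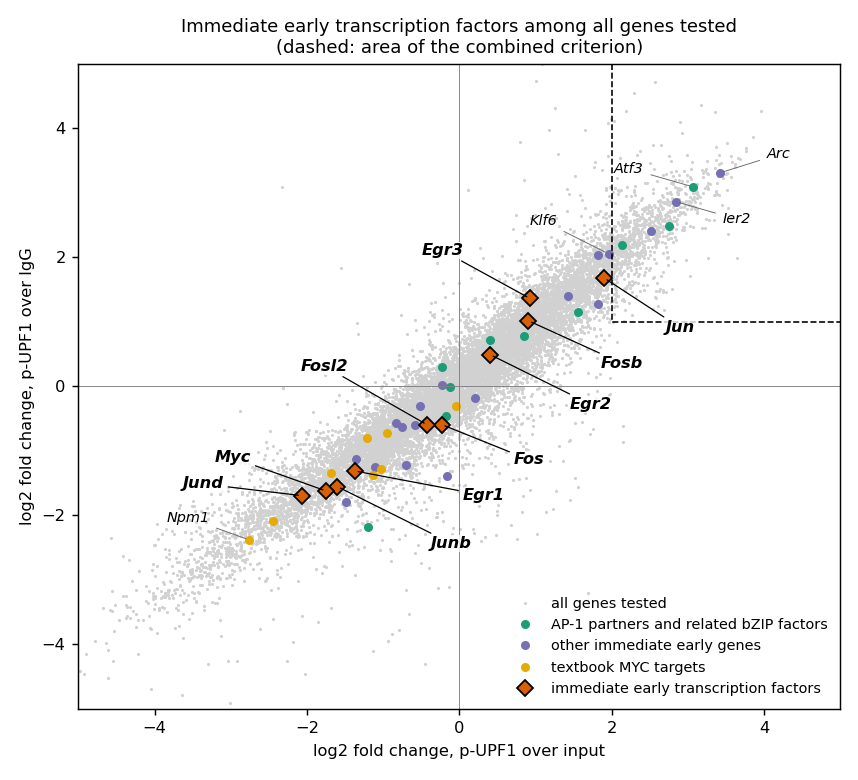
Log2FC over input (x axis) and over IgG (y axis) of all genes tested (grey), the 10 immediate early transcription factors (diamonds) and 3 lists of related genes (coloured points); the dashed lines bound the combined criterion and 26 genes lie outside the axes. *Jun* sits just left of the dashed area, which holds *Arc*, *Atf3* and *Ier2*.

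Lists of genes with related functions were read with the same tests. The AP-1 partners are other basic leucine zipper factors that pair with FOS or JUN proteins. Of 11 such genes 10 were tested, 7 were higher over IgG and 2 were lower, with a median Log2FC of 0.75 beside -0.03 for all genes, of which 40.4% were higher and 42.2% lower. p-UPF1-bound among them, where 6.25% of all genes were, were *Atf3* (3.09 over IgG and 3.07 over input), a stress-induced repressor, *Mafk* (2.48 and 2.75), a small MAF protein without an activation domain, and *Jdp2* (2.19 and 2.13), a JUN dimerization partner that represses AP-1. *Jdp2* was not bound under glmTreat, which tests against the minimum Log2FC itself. The lowest were *Fosl1* (-2.19, SE 0.60, adj. P 0.00301 by edgeR's quasi-likelihood test), which encodes Fra-1 and had an input mean of only 0.345 CPM, and *Atf2* (-0.47, adj. P 2.89e-06). *Fosl1* overlaps *Ccdc85b* and *Atf2* overlaps *Gm10822*, both on the opposite strand.

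Among 18 tested of 19 other immediate early genes, 7 were higher over IgG and 10 lower, with a median of -0.24, beside 40.4% and 42.2% of all genes. *Arc* (3.31 over IgG and 3.42 over input), *Ier2* (2.86 and 2.84) and *Ier5* (2.41 and 2.52) were p-UPF1-bound, as were 6.25% of all genes. *Arc*, known from synapses, has 2 exon junctions past its stop codon, and *Ier2* and *Ier5* are single exons as the JUN genes are. *Klf6* (2.05 and 1.96) and *Klf10* (2.04 and 1.82), zinc finger factors of the Krüppel family, fell short of the minimum over input as *Jun* did, and *Klf6* passed it, and was bound, under 4 of 22 alternatives. *Klf10* overlaps *Gm35248* on the opposite strand. The lowest over IgG were *Ier3* (-1.80, adj. P 5.53e-06 by edgeR's quasi-likelihood test), a regulator of survival, and *Btg2* (-1.40, adj. P 1.71e-14), an antiproliferative factor that promotes deadenylation. *Btg2* was at -0.16 over input (adj. P 0.00373) and at 1.24 for IgG over input (adj. P 8.08e-12).

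The 16 genes that encode kinases and factors upstream of the immediate early response, all tested, had 7 higher and 7 lower over IgG and a median of -0.08, shares near the 40.4% and 42.2% of all genes. *Mrtfb* (2.33 over IgG and 2.14 over input), a coactivator of serum response factor, and *Mapk14* (2.26 and 2.12), the p38 alpha kinase, were p-UPF1-bound, as were 6.25% of all genes, and *Mrtfb* was not under glmTreat. Both loci overlap other annotated genes, *Mrtfb* on the opposite strand and *Mapk14* on its own. *Srf* itself was at 0.34 (adj. P 7.11e-06, edgeR), and the lowest were *Mapk3* (-0.95, adj. P 8.91e-09) and *Rps6ka3* (-0.87, adj. P 1.51e-07), which encode the kinases ERK1 and RSK2. The EGR corepressors were near 0, with *Nab1* at 0.17 (adj. P 0.00261) and *Nab2*, which overlaps *Stat6*, at -0.04 (adj. P 0.502).

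A list of the MYC network, with paralogues, partners and regulators, held 12 genes, of which 11 were tested. Of these, 7 were higher over IgG and 1 was lower, with a median of 0.46, where 40.4% of all genes were higher and 42.2% lower. None was p-UPF1-bound, against 6.25% of all genes. *Mnt* (1.25, adj. P 4.58e-13 by edgeR's quasi-likelihood test) and *Mlxip* (1.22, adj. P 9.48e-13), which encode a MAX-binding repressor and the glucose-responsive factor MondoA, were highest. *Max* was at -0.33 (adj. P 3.21e-06), and *Mxd3*, which overlaps *Prelid1* on the opposite strand, was at -0.55 (adj. P 0.0522). The 8 textbook targets of MYC, growth genes of ribosome assembly, metabolism and the cell cycle, were all lower over IgG, with a median of -1.32, where 42.2% of all genes tested were lower. Over input 7 of the 8 were lower, beside 42.6% of all genes, and *Nop56* was at -0.05 (adj. P 0.457). Over IgG they ran from *Npm1* (-2.38, adj. P 9.35e-18) and *Fbl* (-2.09, adj. P 3.33e-16), nucleolar proteins, to *Cad* (-0.72, adj. P 3.99e-07), of pyrimidine synthesis, and *Nop56* (-0.30, adj. P 0.000103), a box C/D snoRNP protein. *Cad* and *Nop56* share their loci with other annotated genes. *Myc* itself, at -1.62, lay within the range of its targets.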

How the data were processed

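The deposited file is 1 table of raw read counts per gene, by NCBI Gene identifier, for 9 RIP-seq libraries. Per the labels the authors trimmed reads with cutadapt, aligned them to mm10 with HISAT2 and counted them with featureCounts; versions, and whether RIP-seq reads were counted by strand, are not given in the sources used here (the methods state unstranded alignment for RNA-seq). No molecular identifiers are named, so counting error understates the true error. Groups follow the labels. The rule that takes the 10 members by name uses no measured value, but the members and the gene lists were chosen with earlier results of these data known.

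Symbols came from RefSeq (25275 of 27179 identifiers matched). Genes were kept by filterByExpr (minimum count 10, total 15), scaled by TMM and fitted over all 9 libraries in edgeR 4.0.16 (glmQLFit, glmQLFTest, R 4.3.3, 6 residual degrees of freedom, prior count 0.125), with Benjamini-Hochberg adjustment over the 13129 genes tested and a threshold of 0.05. Scripts were tested on simulated data. Ratios within libraries used a pseudocount of 1 and exact permutation tests, without pairing libraries by column letter. Transcript features and sequences came from GENCODE M21 and the GRCm38 genome, with 1 representative transcript per gene (principal or basic tag, then longest coding sequence). All members are named; of each list, the bound genes and the 2 highest and 2 lowest over IgG, plus genes named after their values were seen (*Klf6*, *Klf10*, *Srf*). Alternatives were other scalings and filters, DESeq2 1.42.0, limma-voom (limma 3.58.1), glmTreat, only the groups compared, leaving out each library, and the column letter as a block. Some values are not reported here.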

Additional observations from a re-analysis of the deposited data

How the results depend on the processing

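Each member's value in each comparison was recomputed under 21 alternatives. All 210 values of p-UPF1 over IgG and all 210 of p-UPF1 over input kept their direction and their side of the threshold, with *Fos* over input never passing it. Of the 210 values of IgG over input, 166 did so, 19 lost and 8 gained the call, and 17 turned sign, none of these past the threshold. Scaling moved the median of all genes by -0.14 (upper-quartile) and -0.16 (library size) over IgG, by 0.13 over input (IgG reference), and by 0.12 (library size), 0.11 (input reference; only the groups compared) and 0.10 (IgG reference) for IgG over input. The values that turned sign were *Junb* 0.0204 and *Egr1* 0.0071 with upper-quartile factors; *Fosb* 0.0030, *Junb* 0.0662, *Egr1* 0.0527 and *Egr2* 0.0214 with library size alone; *Junb* 0.0573, *Egr1* 0.0445 and *Egr2* 0.0131 with an input library as TMM reference; *Junb* 0.0507, *Egr1* 0.0376 and *Egr2* 0.0063 with an IgG library as reference; *Junb* 0.0387 and *Egr1* 0.0259 with no filter on low counts; and *Junb* 0.0574, *Egr1* 0.0446 and *Egr2* 0.0132 with only the groups compared. Members lower in IgG than input numbered 1 with upper-quartile factors, library size alone, either reference and only the groups compared. Leaving out 1 library gave 1 to 2 higher (1 without any one input library or without IgG library B, where *Fosl2* was lost) and 2 to 4 lower. The members bound numbered 1 (*Jun*) with an IgG library as reference and with no filter. Bound genes in all numbered 541 with glmTreat, under which the list genes *Jdp2* and *Mrtfb* were lost, and 734 to 1088 otherwise. The cause of the other changes was not tested. A fit with the column letter as a replicate block, added after seeing the data, gave 822 bound genes and 0 of the 10, and changed no call of a member over IgG or over input; for IgG over input *Egr2* passed (-0.0947, adj. P 0.0441 in edgeR). Deviations from the group means correlated at 0.067 to 0.202 between libraries of one letter and at -0.144 to 0.031 between others (8992 genes), a hint from the data that letters pair libraries. Depth limits *Fos* and *Fosb*, at 43 to 116 counts per library.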
